A study of Mus musculus with 14 samples.

Results

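The 10 genes described here, Atf4, Ddit3, Trib3, Chac1, Asns, Phgdh, Psat1, Slc3a2, Slc7a5 and Slc7a11, cover the transcription factor ATF4, stress genes that it switches on, enzymes that make asparagine and serine, and transporters that bring amino acids into the cell. They were chosen by gene symbol from the 55487 genes of the deposited count table, and each symbol gave 1 gene with counts. The symbol Ddit3 stood on a second row with 0 counts, which was left out. The data are RNA sequencing of 14 libraries, each of 1 cell population taken from mouse colon by flow cytometry. The mutant animals carried floxed alleles of Tsc2 and Cre recombinase at the Lyz2 locus, Tsc2 fl/fl Lyz2 cre/+ (cre). Their controls were floxed in the same way but had no recombinase, Tsc2 fl/fl Lyz2 +/+ (wt). Macrophages of the lamina propria gave 3 cre and 3 wt libraries, and EpCAM+ CD44-high epithelial cells gave 4 cre and 4 wt libraries. All 3 cre macrophage libraries were from males, against 1 male and 2 females among the wt ones. The cre epithelial libraries were from 3 males and 1 female, against 2 males and 2 females for wt. The labels give no ages.

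ATF4 is made when the initiation factor eIF2 is phosphorylated by kinases that sense amino acid shortage, misfolded protein in the endoplasmic reticulum, viral RNA or lack of heme, and also when the kinase complex mTORC1 is active. It then raises transcription of genes for amino acid uptake and synthesis, and, under lasting stress, of genes that slow protein synthesis and favour cell death. Tsc2 encodes tuberin, part of the complex that restrains mTORC1. Lyz2 is expressed in myeloid cells, so the recombinase is active in macrophages and is not driven by an epithelial promoter. In these animals the epithelial comparison therefore describes cells beside macrophages in which the recombinase acts. No group had the recombinase without floxed Tsc2, so effects of the recombinase allele and of the deletion cannot be told apart.

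Library totals lay between 7269103 and 9364551 counts. The summed level of 11 macrophage marker genes was 14710 to 18560 CPM in cre and 9784 to 12820 CPM in wt macrophage libraries, against 32.4 to 70.4 CPM in cre and 50.9 to 113 CPM in wt epithelial libraries. CPM are counts of a gene relative to the library total, at the library size found by TMM. The 8 pan-epithelial markers summed to 12250 to 15010 CPM in cre and 9322 to 11130 CPM in wt epithelial libraries, and to 81.0 to 197 and 55.6 to 409 CPM in cre and wt macrophage libraries. Cre epithelial library 8 stood apart from the others of its group, with 26.7% of its counts on 1 ribosomal RNA gene, CT010467.1, against 7.37% to 10.6% in the other 3 and 18.5% to 31.8% in wt. Tsc2 itself had 32.7, 35.7 and 26.9 CPM in cre macrophage libraries 8, 9 and 10, against 42.9, 38.1 and 25.6 CPM in wt libraries 2, 4 and 6, so the groups overlapped (log2 change -0.14, SE 0.23, edgeR adjusted p = 0.860). In cre epithelial libraries 5, 8, 9 and 10 Tsc2 had 55.7, 53.3, 47.6 and 54.1 CPM, against 50.1, 46.1, 44.1 and 48.9 CPM in wt libraries 2, 4, 6 and 7 (log2 change 0.14, SE 0.11, edgeR adjusted p = 0.414). Reads of Tsc2 exons that are not floxed enter these counts, which makes them a weak check of the deletion.

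ATF4 binds DNA together with C/EBP proteins at a composite element, and its core was searched as TGATGNAA on either strand from 250 bases before to 50 bases after the start site in RefSeq (GRCm38.p6). Of the 9 genes with a promoter entry, 4 held the letters, Trib3, Chac1, Asns and Slc7a11. Over all 32851 promoter entries the share was 3.97%, and over the 27025 genes with an entry it was 4.51%. A match is a description of the letters and not a measured binding site. The stretches around the matches are shown 5′ to 3′ on the strand of the gene, because these genes went in both directions between the populations, and capitals mark the match.
Trib3, chr2:152344031-152344076, minus strand: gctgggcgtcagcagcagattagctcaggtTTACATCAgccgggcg
Chac1, chr2:119351019-119351086, plus strand: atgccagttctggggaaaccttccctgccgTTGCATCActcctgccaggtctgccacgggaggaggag
Asns, chr6:7693195-7693262, minus strand: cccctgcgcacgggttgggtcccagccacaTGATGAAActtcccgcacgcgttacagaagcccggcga
Slc7a11, chr3:50443623-50443709, minus strand: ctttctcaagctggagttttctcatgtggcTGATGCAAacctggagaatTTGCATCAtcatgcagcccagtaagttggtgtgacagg
The match in Asns, sense to the gene, began 23 bases before the start site. Slc7a11 held 1 sense match 66 bases and 1 antisense match 47 bases before its start. The Chac1 match was antisense, 193 bases before the start, and the Trib3 match was antisense and began at transcribed base 15. Slc7a5 has no entry, and Atf4, Ddit3, Phgdh, Psat1 and Slc3a2 held no match in this window.

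The order of the 10 genes differed between the populations. On the deposited FPKM scale, which divides by gene length, Slc3a2 was first in macrophages at 258 ± 66.4 FPKM in cre and 208 ± 14.1 FPKM in wt (SD, n = 3 each). Atf4 followed at 138 ± 25.9 FPKM in cre and 116 ± 12 FPKM in wt macrophages, then Ddit3 at 78.5 ± 40.2 FPKM in cre and 43.4 ± 15.2 FPKM in wt (SD, n = 3 each). The ranges of Atf4 and Ddit3 overlapped in cre macrophages and did not in wt. Slc7a11, Psat1, Trib3, Asns, Chac1, Phgdh and Slc7a5 stood between 0.397 and 11.4 FPKM in cre and between 0.686 and 13.1 FPKM in wt macrophages. In epithelial cells Asns was first, at 44.6 ± 3.59 FPKM in cre and 34.95 ± 4.96 FPKM in wt (SD, n = 4 each). Atf4 came next at 31.95 ± 7.08 FPKM in cre and 28.6 ± 4.53 FPKM in wt, then Slc3a2 at 31.7 ± 3.21 FPKM in cre and 22.6 ± 1.598 FPKM in wt, and then Phgdh at 14.2 ± 0.521 FPKM in cre and 12.7 ± 1.88 FPKM in wt (SD, n = 4 each). Asns and Atf4 overlapped in range in both epithelial groups, as did Atf4 and Slc3a2. Slc7a5 and Trib3 were lowest there, under 1 FPKM.

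**Figure D1:**
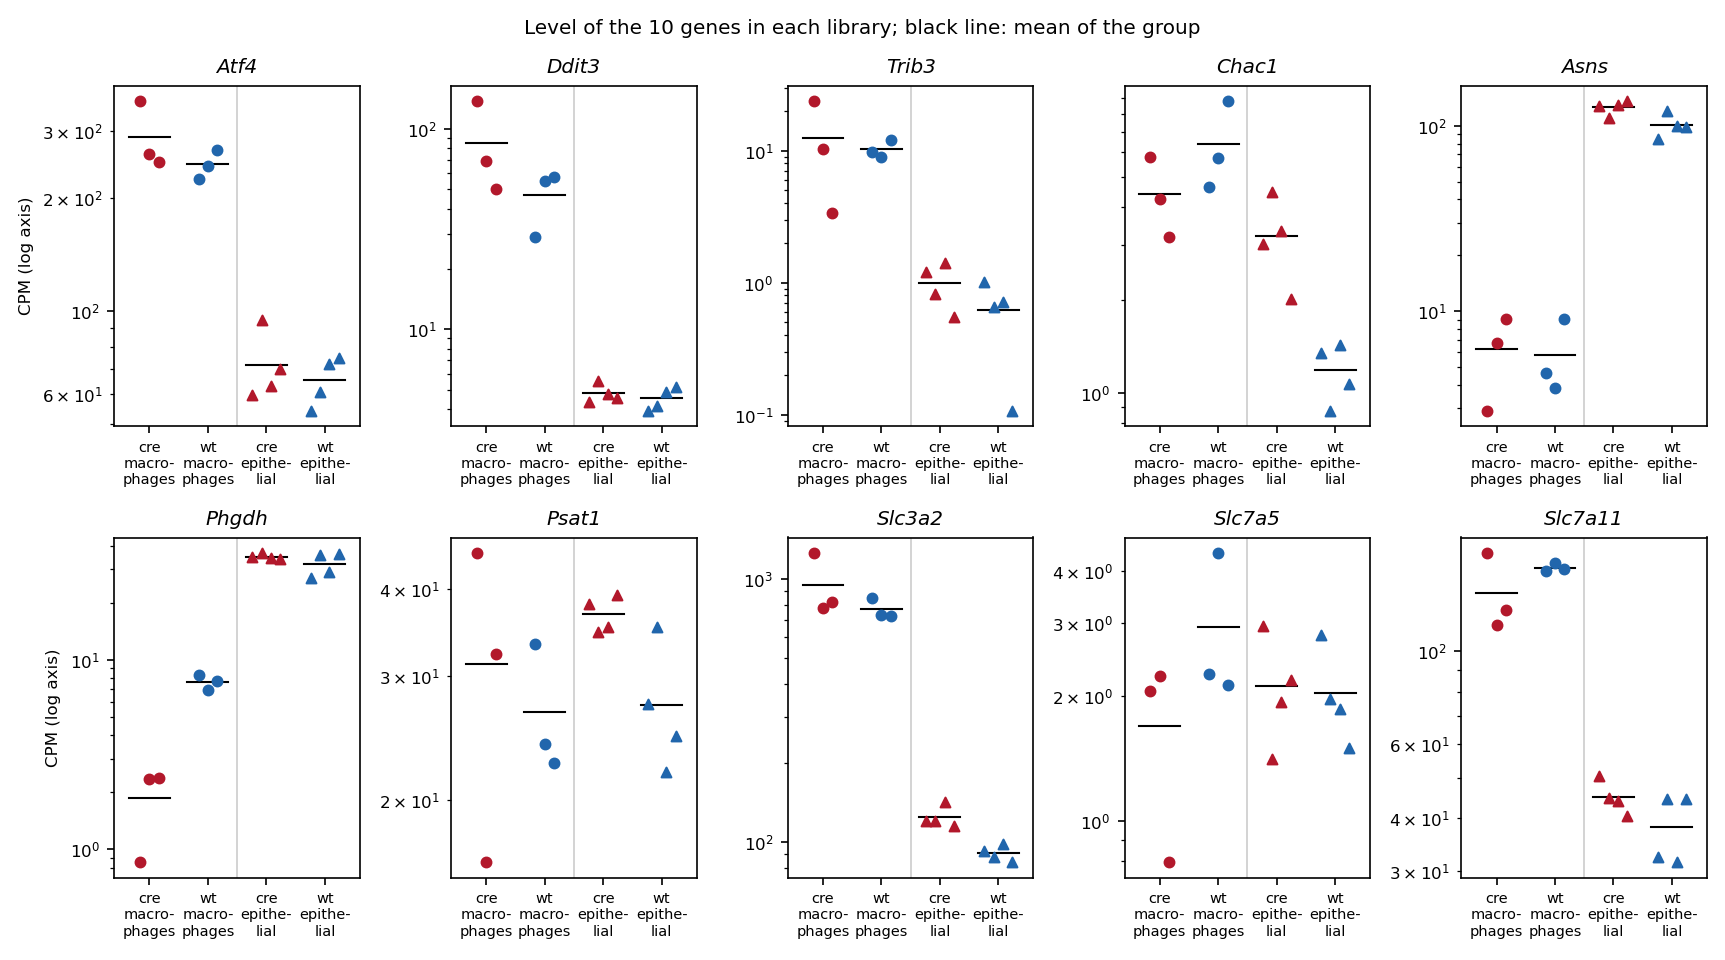
Level of each of the 10 genes in every library, in CPM on a log axis, with macrophages as circles, epithelial cells as triangles, cre in red left of wt in blue, and a black line at the mean of each group. Ddit3, Slc3a2, Atf4, Trib3 and Slc7a11 lie higher in all macrophage libraries than in any epithelial library, Asns and Phgdh lower, and Phgdh is the gene whose cre and wt macrophage libraries do not overlap.

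Between the populations, the stress factors and 2 of the transporter genes were higher in macrophages, whereas 2 of the synthesis enzymes were higher in epithelial cells. With an edgeR Benjamini-Hochberg adjusted p under 0.05 and an absolute log2 difference of at least 1, 8 of the 10 genes were called, 6 higher and 2 lower in macrophages. Over all 16375 genes tested, 52.2% were called, 29.7% higher and 22.5% lower, so a call by itself is common in this comparison. The median log2 difference was 1.63 over the 10 genes and 0.07 over all genes tested. In libraries of sorted cells, fewer cells of a type and less RNA per cell cannot be told apart. Genotypes were weighted equally. In 5 genes every macrophage library was above every epithelial one and in 2 below, as were 25.8% and 21.6% of all genes, 47.5% together. Trib3, among the 6 called higher and these 5, was kept in this comparison only by its macrophage counts.

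Atf4 (ENSMUSG00000042406, chromosome 15, 80255184 to 80257541, GRCm38) encodes the factor itself. It had 360, 260 and 249 CPM in cre macrophage libraries 8, 9 and 10 and 224, 243 and 267 CPM in wt libraries 2, 4 and 6, against 59.7, 94.3, 63.2 and 70.1 CPM in cre epithelial libraries 5, 8, 9 and 10 and 54.3, 60.8, 72.1 and 75.1 CPM in wt libraries 2, 4, 6 and 7. Every macrophage library was above every epithelial one, and the log2 difference was 1.96 (SE 0.13, edgeR adjusted p = 3.39e-10). Ddit3 (ENSMUSG00000025408, chromosome 10, 127290774 to 127296288) encodes CHOP, a factor that ATF4 induces and that favours cell death under lasting stress. It had 137, 69.2 and 50.0 CPM in cre macrophage libraries 8, 9 and 10 and 28.9, 54.7 and 57.4 CPM in wt libraries 2, 4 and 6, against 4.34 to 5.52 CPM in cre and 3.93 to 5.14 CPM in wt epithelial libraries. The populations did not overlap, with a log2 difference of 3.76 (SE 0.22, edgeR adjusted p = 1.14e-10). Ddit3 overlaps the antisense gene Mars1 by 68 bases, and reads there cannot be assigned to a strand.

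Trib3 (ENSMUSG00000032715, chromosome 2, 152337422 to 152344032) encodes a pseudokinase that dampens AKT signalling and ATF4 itself. It had 3.34 to 23.6 CPM in cre and 9.00 to 12.1 CPM in wt macrophages, against 0.548 to 1.40 CPM in cre and 0.107 to 1.01 CPM in wt epithelial cells. The ranges did not overlap between populations, and the difference was 3.82 (SE 0.41, edgeR adjusted p = 2.38e-07). Over the alternatives run it lay between 1.97 and 4.28. Trib3 was too low in epithelial cells to be tested there alone, and its macrophage counts kept it in this fit. Its call and lack of overlap are therefore given as description only. Chac1 (ENSMUSG00000027313, chromosome 2, 119351229 to 119354381) encodes an enzyme that breaks down glutathione. Its log2 difference was 1.44 (SE 0.25, edgeR adjusted p = 6.56e-05), but its lowest macrophage library, cre 10 at 3.18 CPM, was below 2 cre epithelial libraries at 3.33 and 4.46 CPM. With limma on log2(FPKM + 1) its difference fell under the size required for a call.

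Of the transporters, Slc3a2 (ENSMUSG00000010095, chromosome 19, 8706882 to 8723369) encodes CD98hc, the heavy chain that carries several amino acid exchangers to the membrane. It had 1257, 773 and 820 CPM in cre macrophage libraries 8, 9 and 10 and 846, 732 and 726 CPM in wt libraries 2, 4 and 6, against 121, 121, 142.5 and 115 CPM in cre epithelial libraries 5, 8, 9 and 10 and 92.6, 87.7, 98.3 and 83.9 CPM in wt libraries 2, 4, 6 and 7. The log2 difference was 3.01 (SE 0.11, edgeR adjusted p = 3.40e-13) and no library of one population reached the other. Slc7a11 (ENSMUSG00000027737, chromosome 3, 49892526 to 50443614), the cystine and glutamate exchanger xCT, which feeds glutathione synthesis, had 115 to 171 CPM in cre and 155 to 162 CPM in wt macrophages, against 40.5 to 50.4 CPM in cre and 31.5 to 44.5 CPM in wt epithelial cells. That was a log2 difference of 1.83 (SE 0.12, edgeR adjusted p = 2.85e-10), without overlap. Slc7a5 (ENSMUSG00000040010, chromosome 8, 121881150 to 121907694) encodes LAT1, the leucine carrier that pairs with CD98hc. Its log2 difference was 0.10 with a 95% interval of -0.55 to 0.75 (edgeR adjusted p = 0.779), and its 14 libraries lay between 5 and 34 counts.

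CD98hc serves several light chains, so the other partners on the list of amino acid transporters, chosen here after their values were seen, are given beside it per length. In macrophages Slc7a7, whose product exchanges basic for neutral amino acids, stood at 24.4 ± 0.647 FPKM in cre and 16.1 ± 3.603 FPKM in wt (SD, n = 3 each). Slc7a6, its close relative, stood at 6.28 ± 0.676 FPKM in cre and 7.09 ± 1.22 FPKM in wt, and Slc7a8, a carrier of neutral amino acids also called LAT2, at 5.42 ± 1.195 FPKM in cre and 3.55 ± 1.198 FPKM in wt. Slc7a5 stood at 0.397 ± 0.183 FPKM in cre and 0.686 ± 0.312 FPKM in wt macrophages. The 5 light chains together came to 47.9 ± 0.768 FPKM in cre and 40.5 ± 3.20 FPKM in wt macrophages, both below the level of Slc3a2. In epithelial cells they came to 28.1 ± 2.34 FPKM in cre and 28.1 ± 2.66 FPKM in wt (SD, n = 4 each). Slc3a2 was above that mean in cre, at 31.7 ± 3.21 FPKM, and below it in wt, at 22.6 ± 1.598 FPKM. Slc7a5 gave the smallest share of the 5 in both macrophage groups.

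The synthesis enzymes went the other way or did not differ. Asns (ENSMUSG00000029752, chromosome 6, 7675169 to 7693254), asparagine synthetase, had 2.91, 6.72 and 9.07 CPM in cre macrophage libraries 8, 9 and 10 and 4.63, 3.84 and 9.04 CPM in wt libraries 2, 4 and 6, against 128, 110, 129.5 and 135 CPM in cre epithelial libraries 5, 8, 9 and 10 and 84.4, 120, 99.2 and 98.6 CPM in wt libraries 2, 4, 6 and 7. It was lower in every macrophage library, with a log2 difference of -4.21 (SE 0.22, edgeR adjusted p = 2.76e-11). Phgdh (ENSMUSG00000053398, chromosome 3, 98313170 to 98339990) encodes the dehydrogenase of the first step of serine synthesis. Its log2 difference was -3.12 (SE 0.17, edgeR adjusted p = 4.65e-11), again without overlap. Psat1 (ENSMUSG00000024640, chromosome 19, 15904678 to 15947337), the aminotransferase of the next step, had 16.3 to 45.0 CPM in cre and 22.6 to 33.4 CPM in wt macrophages, against 34.7 to 39.2 CPM in cre and 21.9 to 35.2 CPM in wt epithelial cells. Its ranges overlapped, and the log2 difference was -0.14 with a 95% interval of -0.53 to 0.25 (edgeR adjusted p = 0.509). Per length, 2 enzymes of the same short pathway stood apart in macrophages, with Phgdh at 0.819 ± 0.395 FPKM in cre and 3.31 ± 0.239 FPKM in wt, beside Psat1 at 8.70 ± 3.86 FPKM in cre and 7.42 ± 1.47 FPKM in wt (SD, n = 3 each).

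**Figure D2:**
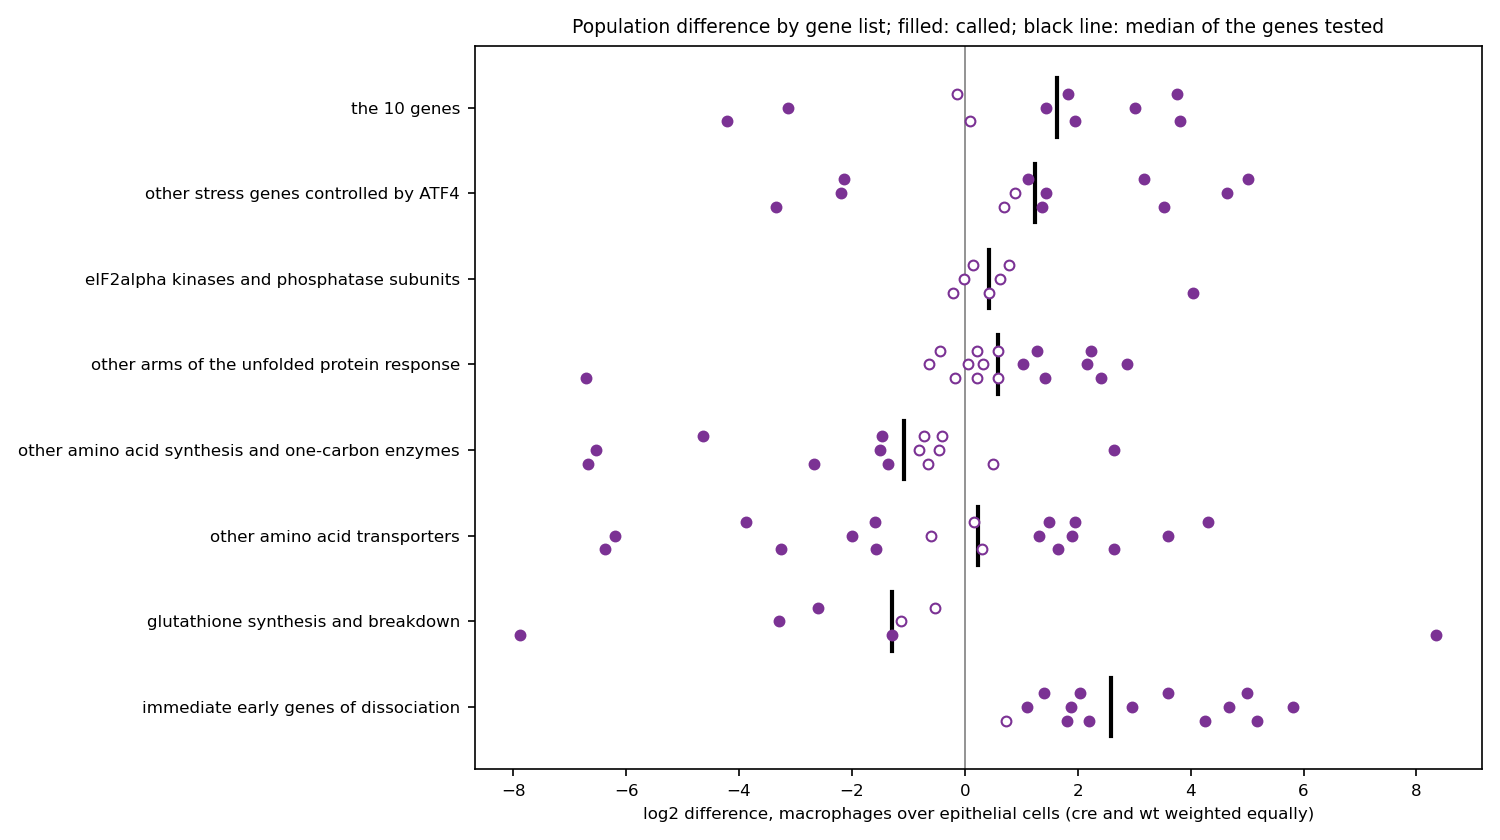
Log2 difference of macrophages over epithelial cells for each gene tested of 8 lists, 1 row per list, with filled points for genes called and a black line at the median of the list. The median is 1.63 for the 10 genes, 2.58 for the immediate early genes and -1.08 for the other amino acid synthesis and one-carbon enzymes.

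The other genes of the pathway are given by list, each read against the background of 29.7% higher and 22.5% lower. Of 14 other stress genes controlled by ATF4, 12 were tested, and 7 were higher and 3 lower in macrophages, with a median log2 difference of 1.243. Herpud1, of endoplasmic reticulum degradation, differed by 3.18 (SE 0.11), the cytokine gene Gdf15 by 5.02 (SE 0.20), the ATF4 partner Cebpb by 4.65 (SE 0.19) and Nupr1, a stress-induced chromatin protein gene, by -3.34 (SE 0.18). Among the eIF2alpha kinases and phosphatase subunits, 1 of 7 was called, Ppp1r15a, the stress-induced phosphatase subunit GADD34, at 4.04 (SE 0.20). Of 14 other enzymes of amino acid synthesis and one-carbon metabolism tested, 1 was higher and 7 were lower in macrophages. Shmt1, which moves a carbon from serine to folate, differed by -4.64 (SE 0.19), Cbs and Cth of cysteine synthesis by -6.68 (SE 0.31) and -6.53 (SE 0.36), and the aspartate aminotransferase gene Got1 by 2.64 (SE 0.16). Of 18 other amino acid transporters tested, 8 were higher and 7 lower, among them Slc43a2 at 3.60 (SE 0.17) and Slc36a4 at 2.65 (SE 0.19), and Slc1a4 at -3.87 (SE 0.19) and Slc1a5 at -1.59 (SE 0.12).

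Of 17 genes of the other arms of the unfolded protein response, 7 were higher and 1 lower in macrophages. The chaperone gene Hspa5 differed by 2.87 (SE 0.11), its cochaperone gene Dnajb9 by 2.41 (SE 0.11), the sensor gene Atf6 by 2.24 (SE 0.13) and Ern2, a sensor of mucus-secreting epithelium, by -6.71 (SE 0.25). In the list of glutathione genes, 1 of 7 was higher and 4 were lower, with Gss, glutathione synthetase, at -3.29 (SE 0.12) and Gclm, a subunit of the first enzyme, at -2.61 (SE 0.13). The gamma-glutamyltransferase genes Ggt6 and Ggt5 differed by -7.87 (SE 0.26) and 8.35 (SE 0.39), each averaging under 1 CPM in both groups of the population where it was lower. The edgeR adjusted p was at most 3.42e-09 for each gene named from these lists. Immediate early genes, which cell dissociation induces, moved with the same contrast, since 13 of 14 were higher in macrophages, with a median log2 difference of 2.58. Their summed level was 14020 to 15590 CPM in cre and 10980 to 15520 CPM in wt macrophages, against 2279 to 3198 CPM in cre and 1737 to 2939 CPM in wt epithelial cells. Their part in the difference of the stress genes was not tested.

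In macrophages none of the 10 genes passed the test between cre and wt. The edgeR quasi-likelihood test called 0 of 10, while it called 0.944% of the 14087 genes tested, 0.731% higher and 0.213% lower. At an unadjusted p under 0.05 there was 1 of 10, Phgdh, which DESeq2 also called, where 12.8% of all genes tested lay under that value. The median log2 change was 0.17 over the 10 genes and 0.00 over all genes. Phgdh had 0.855, 2.36 and 2.39 CPM in cre libraries 8, 9 and 10, from 5, 19 and 15 counts, against 8.32, 6.94 and 7.71 CPM in wt libraries 2, 4 and 6, from 70, 47 and 58 counts. All 3 cre libraries were below all 3 wt libraries, a log2 change of -1.99 (SE 0.44, edgeR adjusted p = 0.0836). Phgdh passed the filter on low counts in this fit only through its wt libraries, where it was higher. Its separation and unadjusted p are therefore given as description. It was the single gene of the 10 without overlap between the macrophage groups, a separation that 19.8% of all genes tested showed, 9.71% with cre higher and 10.1% with cre lower.

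The adjusted p of Phgdh lay on both sides of the threshold. It was 0.00567 with DESeq2, 0.0328 without the filter on low counts, 0.0417 with limma on log2(FPKM + 1) and 0.000899 when all 14 libraries shared 1 edgeR fit, against 0.143 to 0.282 when a library was left out and 0.444 with sex in the model. Of the 16 alternatives run, only these first 4 called Phgdh, and 12 did not. Over the 16 the highest adjusted p of Phgdh was 0.716. Its log2 change lay between -2.20 and -1.66 when single libraries were left out. Markers of some other cells moved with the same groups, while the B and plasma cell, T and innate lymphoid cell and endothelial sums overlapped. The summed level of 8 fibroblast markers was 980 to 2786 CPM in cre and 3300 to 5842 CPM in wt macrophage libraries, lowest in cre 8, which was also lowest in Phgdh. That of 7 dendritic cell markers was 592 to 733 CPM in cre and 917 to 1901 CPM in wt, and none of these markers was at 0. That of 9 granulocyte and mast cell markers was 32.7 to 46.6 CPM in cre and 67.7 to 86.4 CPM in wt. The stem cell sum was higher in cre, at 3.59 to 8.27 against 1.475 to 2.85 CPM. By gene, edgeR called 0 of the 8 fibroblast markers and 1 of the 7 dendritic cell markers, Itgae, lower in cre. Each of these 4 sums had an adjusted exact permutation p of 0.291. With 3 libraries a group the exact permutation test allows no p below 0.10. The part of these cells in the Phgdh counts was not tested.

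The other 9 genes overlapped between cre and wt macrophages. Ddit3 had the largest positive log2 change of the 10, 0.87 (SE 0.40, edgeR adjusted p = 0.417), with library cre 8 at 137 CPM far above the rest, and it was 0.36 without that library. Atf4 changed by 0.25 (SE 0.18, edgeR adjusted p = 0.626), with a 95% interval of -0.15 to 0.66, and Slc3a2 by 0.32 (SE 0.20, edgeR adjusted p = 0.563), with an interval of -0.13 to 0.77. Library cre 8 was the highest of all 14 in Atf4, Ddit3, Trib3, Psat1, Slc3a2 and Slc7a11, and the lowest of all in Asns and Phgdh. The log2 change of Trib3 was 0.28 (SE 0.57) with edgeR, -0.56 without cre 8 and -0.02 with limma on log2(FPKM + 1), so its direction was not settled. Chac1 changed by -0.52 (SE 0.40), Slc7a5 by -0.76 (SE 0.58), Slc7a11 by -0.19 (SE 0.17), Psat1 by 0.24 (SE 0.34) and Asns by 0.11 (SE 0.49), with edgeR adjusted p between 0.659 and 0.958. The 95% intervals of Ddit3 (-0.06 to 1.79), Trib3 (-1.01 to 1.57), Chac1 (-1.42 to 0.37), Asns (-1.001 to 1.22), Psat1 (-0.53 to 1.00) and Slc7a5 (-2.07 to 0.54) each reached a 2-fold change or more.

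Of the wider lists, 1 gene rose in cre macrophages. Gdf15, which encodes a stress cytokine and is induced by ATF4 and CHOP, had 551, 387 and 470 CPM in cre libraries 8, 9 and 10, against 81.0, 106 and 140 CPM in wt libraries 2, 4 and 6. The groups did not overlap, at a log2 change of 2.12 (SE 0.23, edgeR adjusted p = 0.00555), which did not pass with sex in the model (1.75, adjusted p = 0.223), in males alone (1.76, adjusted p = 0.115) or with the ribosomal RNA share in it (1.94, adjusted p = 0.0871). It was the only one called of 11 genes tested on the list of other ATF4-controlled stress genes, whose median log2 change was -0.02. On the lists of other synthesis enzymes (13 tested), other transporters (14), eIF2alpha kinases and phosphatase subunits (7), other arms of the unfolded protein response (16) and glutathione genes (5), edgeR called 0 genes, with 2, 5, 0, 0 and 0 at an unadjusted p under 0.05, against 12.8% of all genes.

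**Figure D3:**
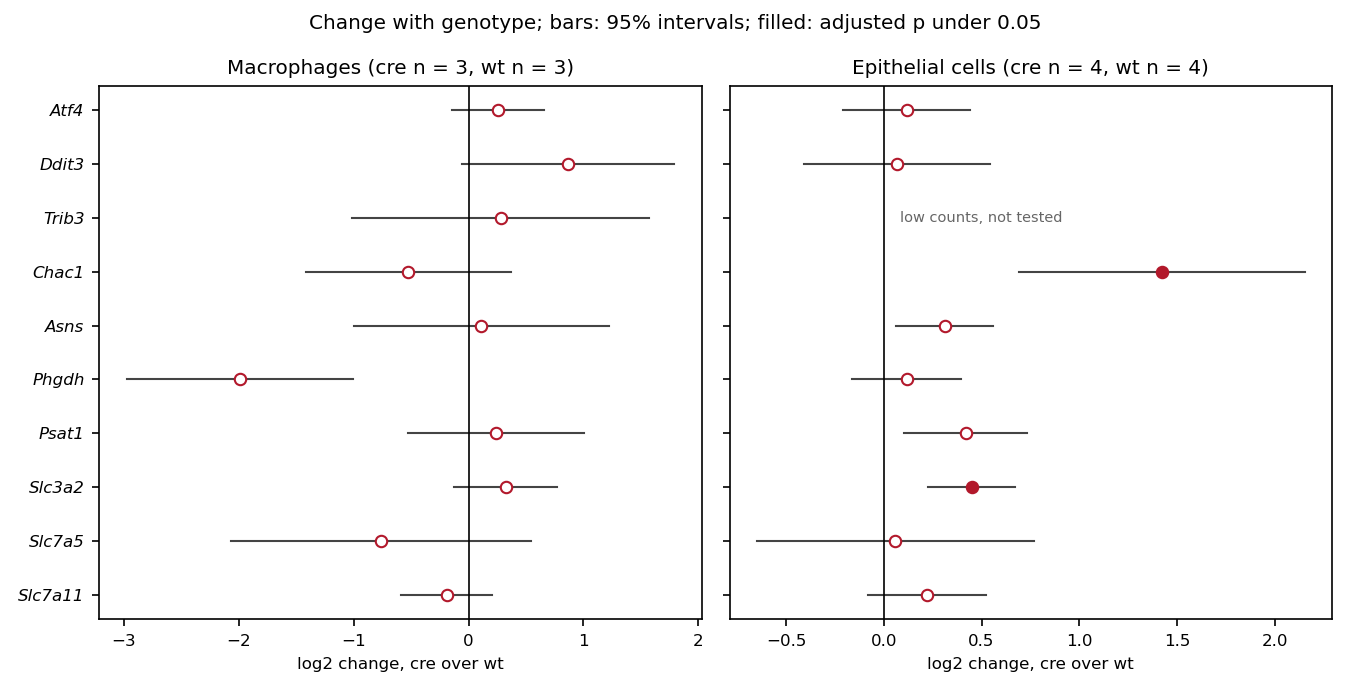
Log2 change of cre over wt for the 10 genes in macrophages (left) and epithelial cells (right), with 95% intervals and filled points for an edgeR adjusted p under 0.05. Chac1 at 1.42 and Slc3a2 at 0.45 in epithelial cells are filled, and Phgdh at -1.99 in macrophages lies farthest from 0 without passing.

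In epithelial cells Chac1 and Slc3a2 rose in cre animals and none of the 10 genes fell. Of the 10 genes 9 passed the filter on low counts, and 2 of these 9 were called, both higher, where 9.17% of the 13553 genes tested were called, 5.64% higher and 3.53% lower. At an unadjusted p under 0.05 there were 4 of the 9, against 27.3% of all genes. Chac1 had 3.03, 4.46, 3.33 and 2.01 CPM in cre libraries 5, 8, 9 and 10, from 35, 38, 38 and 22 counts, against 1.35, 0.875, 1.43 and 1.07 CPM in wt libraries 2, 4, 6 and 7, from 12, 8, 10 and 10 counts. All 4 cre libraries were above all 4 wt libraries, with a log2 change of 1.42 (SE 0.34, edgeR adjusted p = 0.0215). The wt libraries alone would not have kept Chac1 past the filter on low counts, and the cre libraries, where it was higher, did. Its call and separation are therefore given as description, and edgeR without the filter also called it. Slc3a2, with the values given above, was also higher in all 4 cre libraries than in any wt library, by a log2 change of 0.45 (SE 0.10, edgeR adjusted p = 0.0182). Groups were separate in 16.9% of all genes tested, 10.6% with cre higher and 6.31% with cre lower. With limma on log2(FPKM + 1) the 765 higher and 478 lower genes of the whole table became 1142 and 246.

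Both calls were near the threshold. Neither passed in males alone, with all 14 libraries in 1 fit, with the ribosomal RNA share as a covariate or after a trend on GC content and length was removed, where Chac1 changed by 1.238 to 1.75 and Slc3a2 by 0.35 to 0.46. With limma on log2(FPKM + 1) Chac1 changed by 0.68 and passed (adjusted p = 0.0159). The adjusted p was 0.0645 for Chac1 and 0.0524 for Slc3a2 without cre library 5, and 0.0776 and 0.0869 without cre library 9. Chac1 also missed it without wt library 4 (adjusted p = 0.0571). Without the cre library 8 that stood apart in ribosomal RNA, Chac1 changed by 1.23 (adjusted p = 0.0359) and Slc3a2 by 0.46 (adjusted p = 0.0154). The log2 change lay between 1.23 and 1.59 for Chac1 and between 0.38 and 0.50 for Slc3a2 over the 8 fits that each left out 1 library.

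**Figure D4:**
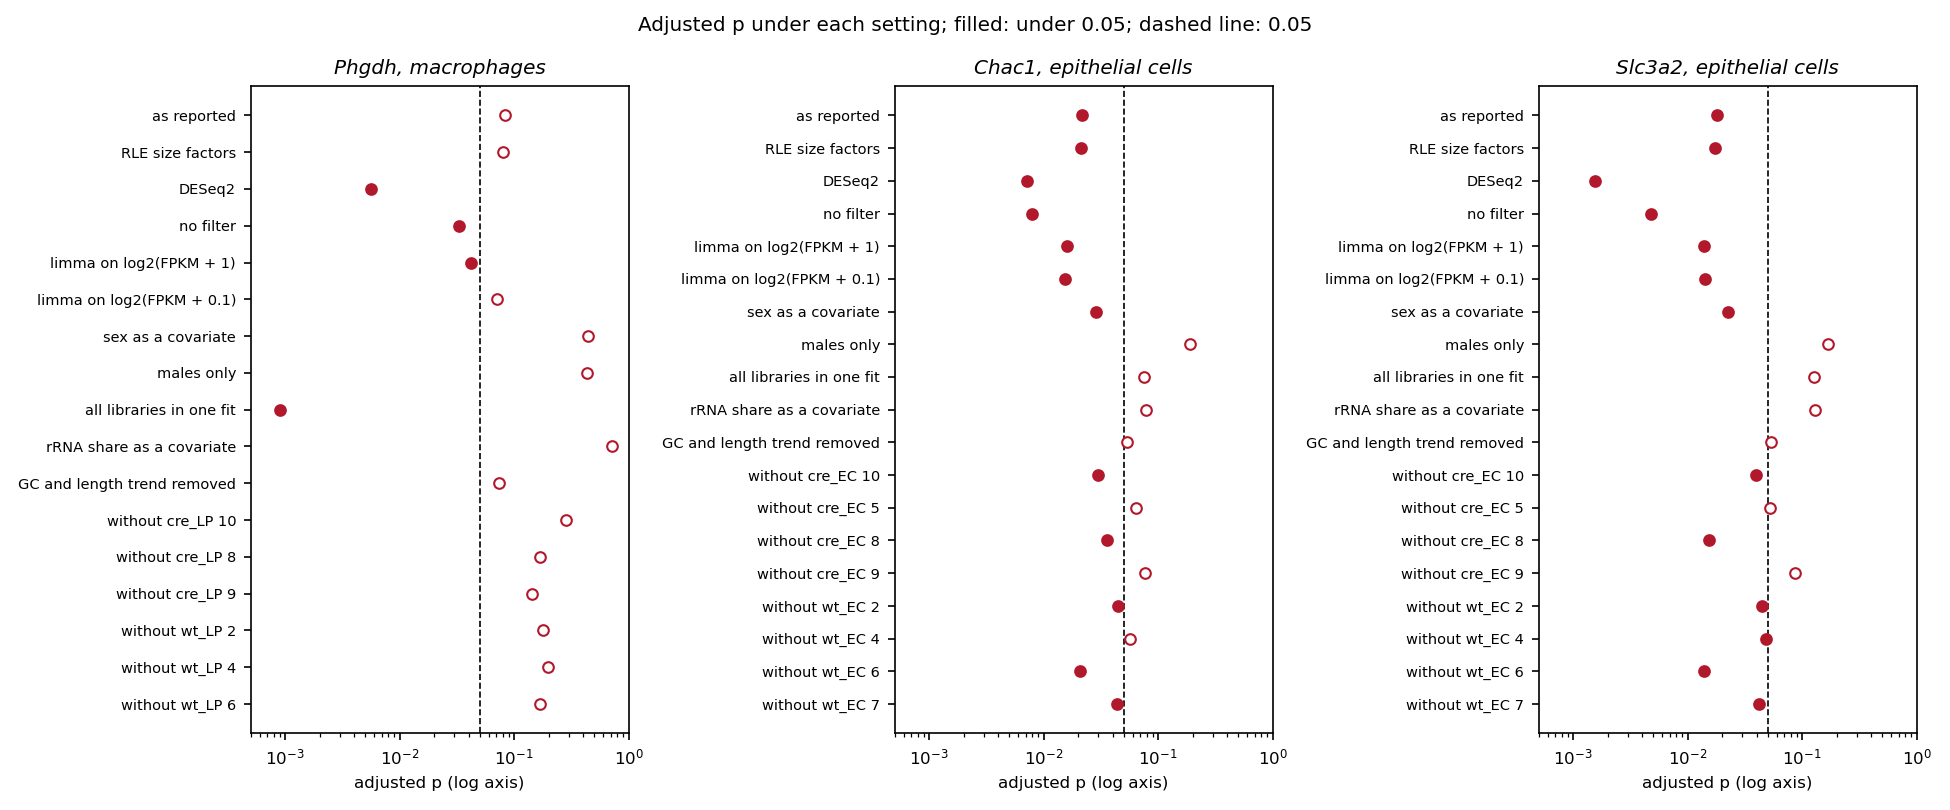
Benjamini-Hochberg adjusted p, on a log axis, of Phgdh in macrophages and of Chac1 and Slc3a2 in epithelial cells under each setting, 1 row per setting, with filled points under 0.05. The fit as reported gives 0.0836 for Phgdh, 0.0215 for Chac1 and 0.0182 for Slc3a2, and points lie on both sides of the dashed line at 0.05 in each panel.

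The other 7 genes tested in epithelial cells changed by 0.06 to 0.42 on the log2 scale, all of them positive, and their groups overlapped. Psat1 changed by 0.42 (SE 0.15, edgeR adjusted p = 0.0825), and was called with DESeq2 (adjusted p = 0.0466), with sex in the model (adjusted p = 0.0413) and without wt library 4 (adjusted p = 0.0373). It had 38.1, 34.7, 35.3 and 39.2 CPM in cre libraries 5, 8, 9 and 10, against 27.4, 35.2, 21.9 and 24.6 CPM in wt libraries 2, 4, 6 and 7, and wt 4 alone reached the cre range. Asns changed by 0.31 (SE 0.12, edgeR adjusted p = 0.10) and Slc7a11 by 0.22 (SE 0.14, edgeR adjusted p = 0.335). Atf4 changed by 0.12 (95% interval -0.21 to 0.44), Phgdh by 0.12 (-0.16 to 0.40), Ddit3 by 0.07 (-0.41 to 0.54) and Slc7a5 by 0.06 (-0.65 to 0.77). The median over the 9 genes was 0.22, and over all genes -0.05. With the GC and length trend removed, Atf4, Phgdh and Slc7a5 were at -0.03, -0.06 and -0.01. Trib3 had 14, 7, 16 and 6 counts in cre libraries 5, 8, 9 and 10, against 9, 6, 5 and 1 counts in wt libraries 2, 4, 6 and 7, and was not tested.

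Other genes of amino acid supply and of the unfolded protein response changed in epithelial cells in both directions, close to the threshold. The 11 genes Got1, Bcat2, Slc38a1, Gss, Ern2, Creld2, Pdia6, Atf6, Ppp1r15b, Top2a and Fosb all lost their call in males alone, with all 14 libraries in 1 fit, with the ribosomal RNA share as a covariate and without cre library 9. With the GC and length trend removed 8 of the 11 lost it, among them Slc38a1 at -0.20, Atf6 at -0.30, Top2a at -0.27, Creld2 at 0.30, Bcat2 at 0.28 and Ppp1r15b at -0.42. The list counts here and in the next paragraph are read against all genes tested, of which 9.17% were called, 5.64% higher and 3.53% lower. Of 14 other synthesis and one-carbon enzymes tested, 2 rose and 0 fell. Got1 rose by 0.60 (SE 0.13, edgeR adjusted p = 0.0124), and Bcat2, a branched-chain aminotransferase gene, by 0.44 (SE 0.11, edgeR adjusted p = 0.0261). Of 16 other transporters, Slc38a1, a glutamine carrier gene, fell by 0.52 (SE 0.15, edgeR adjusted p = 0.0478). Of 6 glutathione genes, Gss rose by 0.39 (SE 0.11, edgeR adjusted p = 0.0371), while Chac1 encodes an enzyme acting on the product of Gss.

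Of 17 genes of the other arms of the unfolded protein response, Ern2 rose by 0.52 (SE 0.11, edgeR adjusted p = 0.0136), Creld2 by 0.50 (SE 0.13, edgeR adjusted p = 0.0333) and Pdia6, a protein disulfide isomerase gene, by 0.28 (SE 0.08, edgeR adjusted p = 0.0445), and Atf6 fell by 0.67 (SE 0.19, edgeR adjusted p = 0.0454). Ppp1r15b, the constitutive subunit of the eIF2alpha phosphatase, fell by 0.67 (SE 0.16, edgeR adjusted p = 0.0180), and the 4 kinase genes did not pass. Of 11 other ATF4-controlled stress genes tested, edgeR called 0, with 5 at an unadjusted p under 0.05, where 27.3% of all genes lay, and the median log2 change was 0.28. Pan-epithelial markers summed higher in all 4 cre epithelial libraries than in any wt one, but the 8 genes did not all rise. Of these 8, edgeR called 3 higher, Krt8, Krt18 and Lgals4, and 1 lower, Cdh1 at -0.36 (SE 0.10, edgeR adjusted p = 0.0377). The mitochondrial share of counts was 10.4% to 10.7% in cre against 11.6% to 18.1% in wt. In cre epithelial cells the cell cycle gene Top2a fell by 0.58 (SE 0.17, edgeR adjusted p = 0.0458) and the immediate early gene Fosb by 0.82 (SE 0.23, edgeR adjusted p = 0.0391), each the 1 gene of 14 called on its list. The 8 fibroblast markers summed to 1.46 to 2.60 CPM in cre and 4.16 to 7.59 CPM in wt epithelial libraries. Of the 6 enteroendocrine and tuft cell markers tested Neurod1 and Dclk1 fell, by 1.31 and 1.17 on the log2 scale (edgeR adjusted p = 0.0223 and 0.0197). The sum of that list overlapped, at 372 to 676 CPM in cre and 428 to 826 CPM in wt. The pan-epithelial sum, the fibroblast sum and the mitochondrial share each gave an exact two-sided permutation p of 0.0286, the smallest that 4 against 4 allows, and 0.291 after adjustment over the 32 measures compared. Their part in the changes above was not tested. Macrophage markers summed to 32.4 to 70.4 CPM in cre and 50.9 to 113 CPM in wt epithelial libraries. Of the 10 tested there edgeR called 3 lower, C1qa, Laptm5 and Cybb, and 0 higher.

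The genotype change was also compared between the populations in 1 fit with 4 groups. Phgdh was the 1 gene of 10 called, where 0.702% of 16375 genes were, 0.47% with a higher and 0.232% with a lower change in macrophages. Its log2 change in macrophages minus that in epithelial cells was -2.13 (SE 0.33, edgeR adjusted p = 0.00850). This fit estimates 1 spread per gene over both populations, and its SE was below the 0.44 of the macrophage change fitted alone. The call therefore rests on macrophages and epithelial cells sharing that spread, and Phgdh did not pass in macrophages alone. The epithelial side held 34.9, 36.7, 34.4 and 34.2 CPM in cre libraries 5, 8, 9 and 10, against 27.1, 35.7, 28.9 and 36.3 CPM in wt libraries 2, 4, 6 and 7, so no fall was seen there. The call did not pass in males alone (adjusted p = 0.149) or with a block on the replicate numbers (adjusted p = 0.131), and passed without each of the 14 libraries in turn. Chac1, at -0.52 in macrophages and 1.42 in epithelial cells, had a difference of -1.97 (SE 0.51) that did not pass (edgeR adjusted p = 0.0880). The remaining 8 genes had edgeR adjusted p between 0.384 and 0.886.

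Among the wider lists, 1 further gene was called for the difference, Slc43a1, which encodes LAT3, a leucine and phenylalanine carrier. It had 1.03, 1.62 and 1.27 CPM in cre macrophage libraries 8, 9 and 10, against 5.70, 4.28 and 5.05 CPM in wt libraries 2, 4 and 6. In epithelial cells it had 11.8, 8.93, 12.6 and 10.4 CPM in cre libraries 5, 8, 9 and 10, against 10.4, 7.55, 9.73 and 11.1 CPM in wt libraries 2, 4, 6 and 7. The macrophage groups did not overlap, as in 19.8% of all genes tested there, 10.1% with cre lower, and the epithelial ones did. In macrophages fitted alone edgeR called 0 genes of its list. The difference of log2 changes of Slc43a1 was -2.09 (SE 0.37, edgeR adjusted p = 0.0138). It did not pass in males alone (adjusted p = 0.244) or with a block on the replicate numbers (-2.14, adjusted p = 0.145). In cre macrophages Slc43a1, like Phgdh, rested on few counts, 6 to 13 a library.

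A profile of the group was formed in each population as the mean of the standardised log2(CPM + 1) of its genes. Over the 6 macrophage libraries, out of 9017 other genes, it was followed most closely by Ddx23, an RNA helicase gene of splicing (Pearson r = 0.99), Rpl34-ps1 (0.99), Taf10, a subunit gene of the general transcription machinery (0.98), the chemokine gene Cxcl16 (0.98) and Rpl37rt (0.98). Over the 8 epithelial libraries, out of 8129 other genes, the closest were Sh3bgr (0.99), the antiviral adaptor gene Mavs (0.98), Cyp4f16 (0.97), the cytokine gene Il18 (0.97) and Acta1 (0.97). The genes of the profile did not all move together. Pearson r was positive in 27 of their 45 pairs in macrophages (median 0.22) and in 29 of 36 in epithelial cells (median 0.34). In macrophages the profile was highest in library cre 8, at 0.68. These are descriptions over few libraries that share genotype groups, without a test.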

How the data were processed

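The authors deposited unnormalized read counts of each gene and library, and FPKM, which scale each count by gene length and depth. Cells were sorted by flow cytometry and RNA was copied with Smart-seq2, which keeps no strand, and read as 50 bp single reads, per the labels' protocols. STAR 2.5.2b, Picard 2.19.2, DESeq2 1.24.0 and GRCm38 are named in the submitters' processing notes. Not given in the sources used here are their roles, the read counter and the annotation release. The titles carry 4 mouse numbers per genotype while the series text states 3 controls, so some wt libraries may share an animal and p-values may be too small.

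Counts were tested with edgeR 4.0.16 (R 4.3.3): TMM, filterByExpr at a minimum count of 10, robust quasi-likelihood F test, Benjamini-Hochberg adjustment over all genes tested and a threshold of 0.05. Each population was fitted alone, and the 2 contrasts across populations on all 14 libraries. SE is the absolute log2 change over the square root of F, and 95% intervals use the t distribution at the degrees of freedom of the test, unadjusted. Without molecular identifiers PCR copies count as separate reads. Alternatives were RLE factors, DESeq2 1.42.0, no filter, limma 3.58.1 on log2(FPKM + 1) and log2(FPKM + 0.1), sex, males only, 1 fit of all libraries, ribosomal RNA share, a GC and length trend removed (GENCODE M21), a replicate block and leaving out each library. The fits were tested on simulated data with changes of known size. These held no differences of sex, ribosomal RNA share or cell mixture between libraries, so they do not bear on those. One gene was left out of the lists and is not reported here. The 10 genes, the lists and the tests were chosen with earlier results of these data known. Named genes are the 10, at most 4 called genes per list and comparison by smallest p, and for likeness the 5 closest genes with a mean of 5 CPM or more.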

Additional observations from a re-analysis of the deposited data

Results flagged for a closer look

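The change of Phgdh with genotype differed between the populations: the log2 change in macrophages minus that in epithelial cells was -2.13 (SE 0.33, edgeR adjusted p = 0.00850). All 3 cre macrophage libraries were below every wt one, as in 10.1% of all genes tested there. In the macrophage fit Phgdh passed the filter on low counts only through its wt libraries, so this separation is given as description. In macrophages alone Phgdh did not pass (edgeR adjusted p = 0.0836), and cre libraries 8, 9 and 10 held 5, 19 and 15 counts. The SE of the difference was below the 0.44 of the macrophage change fitted alone, because its fit estimates 1 spread per gene over both populations. The result was picked out because the difference itself was tested. It did not pass in males alone (adjusted p = 0.149) or with a block on the replicate numbers (adjusted p = 0.131). In the 2 epithelial groups, of 4 libraries each, no library of the 10 genes lay past Dixon's criterion of 0.829, over 20 sets of values of which chance alone flags about 1 in 20. Macrophage groups of 3 libraries were not examined in this way.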

How the results depend on the processing

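The direction and call of Asns, Atf4, Chac1, Ddit3, Phgdh, Slc3a2, Slc7a11 and Trib3 between the populations were the same under all alternatives run, except that limma on log2(FPKM + 1) took Chac1 below the size threshold and the whole count of called genes from 8543 to 4994. The number of genes called in macrophages, 133, became 517 with DESeq2, 299 without a filter, 2 with sex in the model, 32 in males only, 374 in 1 fit of all libraries, 18 with the ribosomal RNA share, and 29 to 87 when libraries were left out. Of the 10 genes, 1 (Phgdh) was called with DESeq2, without a filter, with limma on log2(FPKM + 1) and in 1 fit of all libraries. In epithelial cells 1243 genes became 1967 with DESeq2, 5 in males only, 19 in 1 fit of all libraries, 3 with the ribosomal RNA share, 624 with the GC and length trend removed and 178 to 1947 when libraries were left out. Of the 10 genes, 0 were called in epithelial cells in males only, in 1 fit of all libraries, with the ribosomal RNA share and with the trend removed, and 0 to 2 when libraries were left out. The 11 genes named from the wider lists in epithelial cells lost their call in 104 fits and kept it in 94. For the difference of genotype changes, 115 genes became 535 with DESeq2, 195 without a filter, 297 with limma on log2(FPKM + 1), 18 in males only and 54 to 229 when libraries were left out. Phgdh was not called there in males only, where 0 of the 10 were. With a replicate block on the numbers of the titles, 8 genes and 0 of the 10 were called. Phgdh then differed by -2.24 with an edgeR adjusted p of 0.131. Same-numbered libraries of the populations had correlated deviations of -0.10 to 0.10 over 6 pairs, 1 above 0.1, and 2 of 6 matched their own number best, so the numbers are not shown to pair the libraries. The block left the 8 calls between populations in place. The causes of these changes were not tested.

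Changes of sign concerned genes that did not pass. In macrophages Trib3 was at -0.020 and -0.10 with limma on log2(FPKM + 1) and log2(FPKM + 0.1) and between -0.56 and 0.73 when libraries were left out. Asns was at -0.53 with sex in the model, -0.52 in males only and between -0.25 and 0.58 when libraries were left out, and Psat1 at -0.48 with the ribosomal RNA share and between -0.12 and 0.55. In epithelial cells, with the GC and length trend removed, Atf4 was at -0.034, Phgdh at -0.063 and Slc7a5 at -0.0093. Ddit3 was at -0.035 in males only and Slc7a5 at -0.33 with the ribosomal RNA share. When libraries were left out, Atf4 lay between -0.04 and 0.20, Ddit3 between -0.0023 and 0.14 and Slc7a5 between -0.14 and 0.25. For the difference of changes Atf4 was at -0.016 with sex in the model and -0.043 with the replicate block, and when libraries were left out Atf4 lay between -0.10 and 0.27, Asns between -0.59 and 0.24 and Psat1 between -0.60 and 0.10. Between populations Psat1 lay between -0.32 and 0.014 and Slc7a5 between -0.11 and 0.27. With limma on log2(FPKM + 1), over 10522 genes in place of 13553, the median of all genes in epithelial cells was 0.11 higher on the log2 scale. Depth limits Trib3, Chac1 and Slc7a5 most, with 1 to 38 counts in each epithelial library.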
